A study of Mus musculus with 11 samples.

Results

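The FGF genes described here are the ligands Fgf3 and Fgf10, the receptors Fgfr1 and Fgfr2, and the feedback and target genes Spry1, Spry2, Spry4, Dusp6, Etv4 and Etv5. They were chosen by symbol, and all 10 were found among the 16755 genes of the expression table. RNA was sequenced from maxillary molar tooth germs of C57BL/6 mouse embryos at E14.5, when the molar is at the cap stage. There were 4 wild-type (Cilk1+/+) libraries, 4 Cilk1-/- libraries and 3 libraries of Cilk1-/-;PCS1–MRCS1△/△, called the compound mutant here. Cilk1 encodes a kinase of the primary cilium, and both mutants carry its deletion in every cell. The compound mutant is also homozygous for a deletion that removes oral enhancers of Shh, and no group carried the enhancer deletion alone. Embryos of both sexes were used, and each library held n = 6, where what was counted as 6 is not stated. The knocked-out gene, listed under its older symbol Ick, had levels of 3.45 to 3.60 in wild type, 2.72 to 2.86 in Cilk1-/- and 2.60 to 2.67 in the compound mutant on the deposited log2 scale, which includes RNA outside the deleted exon.

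Fibroblast growth factors (FGFs) are secreted proteins that bind receptor tyrosine kinases on nearby cells and switch on the Ras-ERK cascade. In the tooth germ, the enamel knot of the epithelium secretes Fgf4, Fgf9 and Fgf20. The dental mesenchyme makes Fgf3 and Fgf10, which maintain growth of the epithelium, and Fgf3 is also made in the enamel knot. ERK activity induces Etv4 and Etv5, transcription factors of the ETS family, and also its own brakes. The brakes include the Sprouty proteins (Spry1, Spry2 and Spry4), which damp receptor signalling, and Dusp6, a phosphatase that inactivates ERK. Loss of Spry2 or Spry4 is known to allow extra teeth in the toothless diastema.

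RefSeq promoter sequences (GRCm38.p6) matched 7 of the 10 genes, namely Fgf3, Fgf10, Fgfr2, Spry1, Spry2, Dusp6 and Etv5. The 250 bases before the start are shown for 3 feedback genes, because in the compound mutant the mean of Dusp6 lay farthest below wild type, that of Spry2 farthest above, and that of Spry1 between them. Each is written 5′ to 3′ on the strand of its gene. The windows lie at chr10:99262981-99263230 (plus strand) for Dusp6, chr3:37639697-37639946 (plus strand) for Spry1 and chr14:105896820-105897069 (minus strand) for Spry2. Capitals mark GGAAG, a core sequence recognised by ETS factors, or its reverse complement CTTCC.
Dusp6: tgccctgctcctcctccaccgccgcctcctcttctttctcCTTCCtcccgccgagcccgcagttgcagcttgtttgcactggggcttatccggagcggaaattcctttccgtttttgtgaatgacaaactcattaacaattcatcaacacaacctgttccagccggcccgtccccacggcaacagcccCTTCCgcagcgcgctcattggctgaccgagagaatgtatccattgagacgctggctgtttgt
Spry1: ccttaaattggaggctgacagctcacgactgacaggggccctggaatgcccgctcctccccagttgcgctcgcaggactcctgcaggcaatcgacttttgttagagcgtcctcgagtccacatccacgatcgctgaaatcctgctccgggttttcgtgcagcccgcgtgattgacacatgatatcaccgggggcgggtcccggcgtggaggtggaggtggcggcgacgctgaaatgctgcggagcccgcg
Spry2: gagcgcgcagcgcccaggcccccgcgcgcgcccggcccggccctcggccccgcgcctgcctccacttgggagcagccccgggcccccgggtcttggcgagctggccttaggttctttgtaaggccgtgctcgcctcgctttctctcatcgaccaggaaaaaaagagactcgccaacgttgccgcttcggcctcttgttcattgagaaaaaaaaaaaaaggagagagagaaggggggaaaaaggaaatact
The Dusp6 window held 2 matches, both on the opposite strand, starting at positions −210 and −62 from the start of the gene. The Spry1 and Spry2 windows held 0 matches. Other sequences that ETS factors may recognise were not searched for and are not marked in any window. Of all 32851 promoter windows of this length, 64.1% held at least 1 match on either strand. A match describes the letters and not binding.

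The receptor Fgfr1 was the most abundant of the 10 genes in wild type and the ligand Fgf10 the least abundant. The deposited values are on a log2 scale whose exact form is not stated. They were read as log2(value + 1) of FPKM, a read count scaled by gene length and library size, and levels of different genes are set side by side on that reading. In 257 of the 16755 genes at least 1 library has a value below 0, which log2(FPKM + 1) cannot give, so the values are at least in part something else. None of the 10 genes has such a value. On the deposited scale Fgfr1 had a wild-type level of 6.60 ± 0.15 (SD, n = 4), at the 97.1 percentile of all genes. Dusp6 followed at 6.14 ± 0.11, then Etv4 at 5.31 ± 0.23 and Fgfr2 at 5.28 ± 0.13. Etv5 stood at 4.70 ± 0.13, Spry1 at 4.51 ± 0.08, Spry2 at 3.93 ± 0.09 and Spry4 at 3.41 ± 0.22. The ligands came last, with Fgf3 at 3.30 ± 0.38 and Fgf10 at 2.86 ± 0.18, the latter at the 47.0 percentile. The wild-type libraries overlapped for Etv4 and Fgfr2, Etv5 and Spry1, Spry4 and Fgf3, and Fgf3 and Fgf10, and were separate for the other neighbours in this order.

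Some properties of the libraries bear on every comparison. Wild-type and Cilk1-/- libraries of the same number deviated in opposite directions from their genotype means over all genes. The r was −0.74, −0.89, −0.85 and −0.79 for numbers 1 to 4, so these libraries cannot be taken as independent. For wild-type and Cilk1-/- libraries of different numbers r was not computed. Compound mutant library 1 stood apart on the first principal component of all genes, at −48.5 against −6.63 to 11.2 for the other libraries. The markers of the labelled tissue were present, since all 7 dental epithelium and all 8 dental mesenchyme markers were above 1 in every library on the linear scale. The summed epithelium markers were 833 to 1055 in wild type, 887 to 1121 in Cilk1-/- and 483, 711 and 1194 in compound mutant libraries 1 to 3. The summed mesenchyme markers were 770 to 860, 690 to 799, and 504, 809 and 575. In compound mutant library 1, markers of nerve reached 195 and those of cartilage and bone 529. The wild-type ranges were 24.6 to 30.7 and 108 to 183. Nerve markers were also above wild type in Cilk1-/-, at 35.5 to 39.0, and in compound mutant libraries 2 and 3, at 40.0 and 67.6. Cartilage and bone markers were 108 to 139 in Cilk1-/-, and 280 and 113 in compound mutant libraries 2 and 3. Blood and vessel markers summed to 819 in compound mutant library 3 and to 2113 to 3032 in all other libraries, and skeletal muscle markers were 4.23 to 5.97 in the compound mutant and 6.35 to 41.9 elsewhere.

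**Figure D1:**
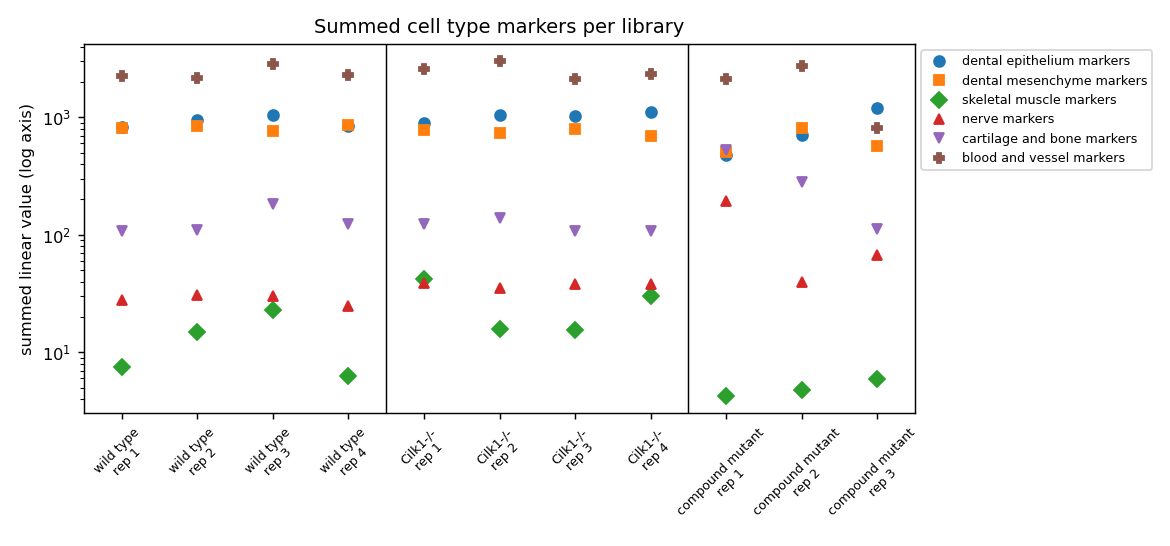
Summed linear values of 6 cell type marker lists in each of the 11 libraries, with a logarithmic vertical axis. Nerve and cartilage and bone markers peak in compound mutant library 1, at 195 and 529, and blood and vessel markers are lowest in compound mutant library 3, at 819.

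The first comparison asked how the FGF genes stood in tooth germs without Cilk1. Both ligands and Dusp6 had lower values in the Cilk1-/- library than in the wild-type library of the same number in 4 of 4 pairs, and Etv4 in 3 of 4. Some differences were small, at −0.02 and −0.05 in pairs 1 and 4 for Fgf3 and −0.02 in pair 4 for Fgf10. The share of all genes lower in 4 of 4 pairs was not counted. None of the 10 genes was called, which needed an adjusted p under 0.05 in limma (Benjamini-Hochberg over all genes) together with a 1.5-fold change or more, where 0.37% of all genes did. At an unadjusted p under 0.05 there was 1 of 10, Fgf10, against 20.7% of all genes. The groups did not overlap for 2 of 10, Fgf10 and Dusp6, against 20.9% of all genes. The median difference of the 10 genes was −0.10 on the deposited log2 scale and that of all genes 0.00.

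Fgf10 (chr13:118669791-118792115, GRCm38) had wild-type levels of 2.95, 2.72, 3.06 and 2.70 and Cilk1-/- levels of 2.43, 2.62, 2.36 and 2.67. The 4 Cilk1-/- libraries all lay below the lowest wild-type library, and the gap between the groups was narrow. The log2 difference was −0.34 (95% confidence interval −0.64 to −0.03, adjusted p = 0.204 in limma). Pairs 1 and 3 carried most of it, since the differences within pairs 1 to 4 were −0.53, −0.10, −0.70 and −0.02. Pairs 1 to 3 belong to the first of 2 library sets in the labels, where the mean difference was −0.44, and pair 4 to the second. In these bulk samples, fewer mesenchymal cells and less RNA per cell cannot be told apart. The summed mesenchyme markers were lower in the Cilk1-/- library in 3 of 4 pairs. They were 785, 733, 799 and 690 in Cilk1-/- libraries 1 to 4 against 818, 844, 770 and 860 in wild type. The exception was pair 3, where the Fgf10 difference was −0.70, and in pair 4, at 690 against 860, it was −0.02. The part of these markers in the result was not tested.

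Fgf3 (chr7:144838083-144844436) had wild-type levels of 2.93, 3.25, 3.83 and 3.17 and Cilk1-/- levels of 2.91, 3.09, 2.49 and 3.12. Wild-type library 3 was the highest and Cilk1-/- library 3 the lowest, and the groups overlapped. The log2 difference was −0.39 (95% confidence interval −1.04 to 0.26, adjusted p = 0.49), of which the third pair alone gave −1.34. The interval spans both no difference and a reduction beyond 1.5-fold, so a change of that size was not detectable with these libraries.

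The mean levels of the receptors were close to wild type. Fgfr1 ranged from 6.39 to 6.82 in Cilk1-/- and from 6.47 to 6.77 in wild type, with a log2 difference of 0.07 (95% confidence interval −0.25 to 0.38). For Fgfr2 the difference was 0.19 (−0.09 to 0.47), and the Cilk1-/- library was the higher one in 3 of 4 pairs. The intervals of both receptors stayed inside a 1.5-fold change in either direction, which is 0.58 on the log2 scale. They come from a fit that takes the libraries as independent, which may not hold for same-numbered ones, so they may be too narrow. Within pairs 1 to 4 the differences were −0.37, 0.34, −0.04 and 0.33 for Fgfr1. For Fgfr2 they were −0.25, 0.46, 0.16 and 0.40.

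Among the feedback and target genes, Dusp6 (chr10:99263231-99267489) showed separate groups. Its wild-type levels were 6.04, 6.12, 6.30 and 6.12 and its Cilk1-/- levels 5.85, 5.92, 5.71 and 5.92. The log2 difference was −0.29 (95% confidence interval −0.62 to 0.03, adjusted p = 0.292). With compound mutant library 1 left out of the fit, the adjusted p was 0.0408 with the same difference, a fold change below the threshold. The adjusted p was 0.384 with the replicate number as a block and 0.362 with the library set as a term.

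Etv4, an ETS factor downstream of ERK, had levels of 5.19, 5.14, 5.65 and 5.27 in wild type and 4.83, 5.19, 4.66 and 5.01 in Cilk1-/-. Cilk1-/- library 2 lay within the wild-type range. The difference was −0.39 (95% confidence interval −0.80 to 0.02, adjusted p = 0.265). Its relative Etv5 differed by −0.20 (−0.42 to 0.02, adjusted p = 0.289), and its values were lower in 2 of 4 pairs.

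The 3 Sprouty genes did not share this direction. Spry1 had the smallest difference of the 10 genes, 0.00 (95% confidence interval −0.21 to 0.21). Spry2 differed by 0.09 (−0.14 to 0.32) and Spry4 by 0.13 (−0.30 to 0.56), and for all 3 the interval stayed inside a 1.5-fold change. These intervals also take the libraries as independent and may be too narrow. Within pairs 1 to 4 the differences of Spry4 were −0.18, 0.58, −0.31 and 0.44. The direction for Spry1 turned under median centring of the libraries.

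**Figure D2:**
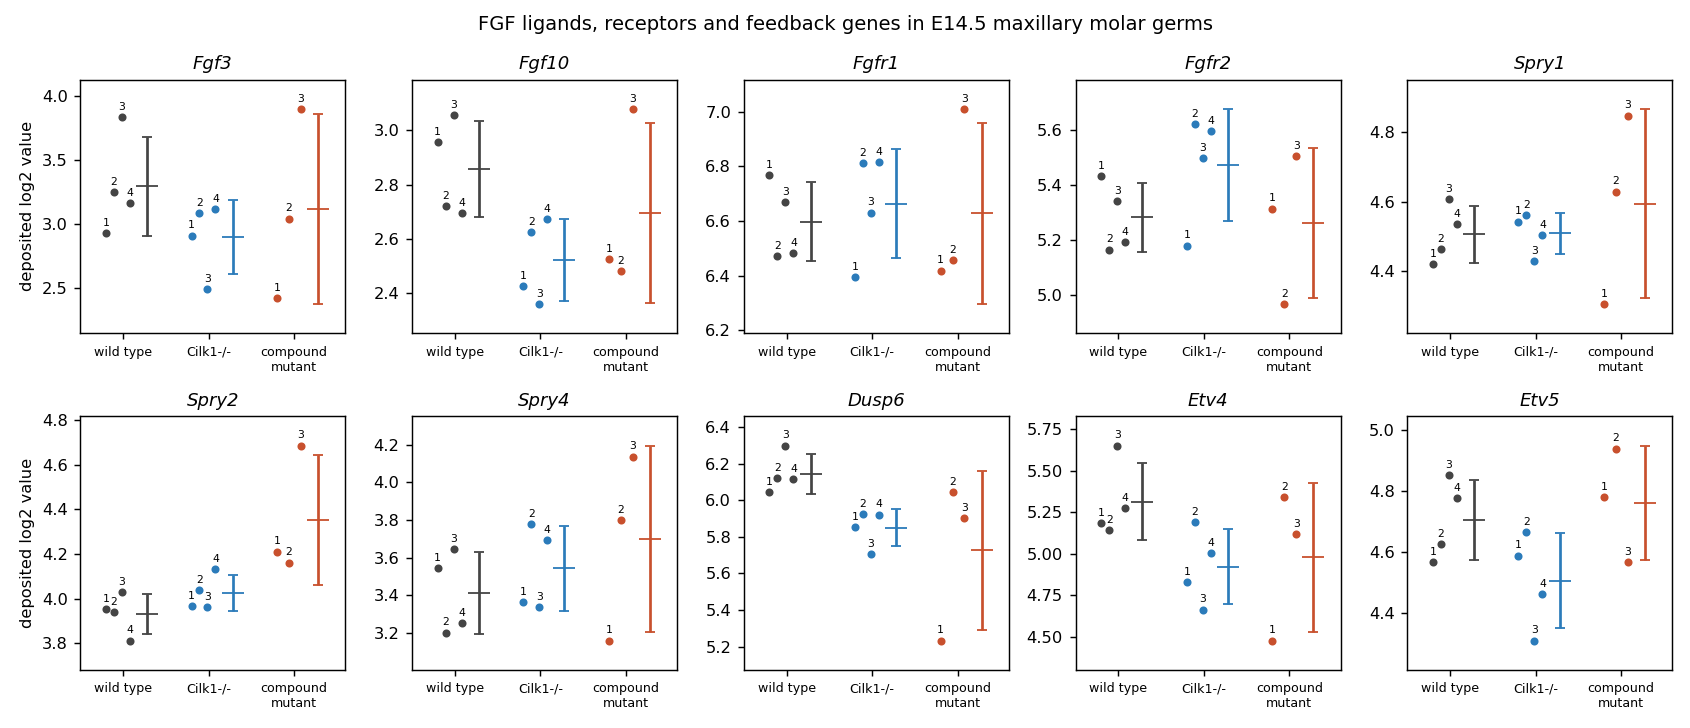
Levels of the 10 genes on the deposited log2 scale (vertical axes, each panel with its own range), with 1 numbered point per library and the mean ± SD beside the points. The Cilk1-/- libraries lie below all wild-type libraries for Fgf10 and Dusp6, and the compound mutant libraries lie above all others for Spry2.

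The second comparison asked how these genes stood when the oral Shh enhancers were removed as well. Spry2 lay above wild type in all 3 compound mutant libraries, and Dusp6 below the wild-type mean in all 3. Again 0 of 10 genes passed the threshold, against 1.25% of all genes. At an unadjusted p under 0.05 there were 2 of 10, Spry2 and Dusp6, against 26.7% of all genes. The groups did not overlap for 1 of 10, Spry2, against 18% of all genes. The median difference of the 10 genes was 0.01 and that of all genes 0.00. All 3 compound mutant libraries belong to the second library set, which holds 1 library of each other genotype. Within that set, the compound mutant mean differed from the wild-type library by 0.54 for Spry2, −0.39 for Dusp6, −0.30 for Etv4, −0.05 for Fgf3 and 0.00 for Fgf10, with no replicate check.

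Spry2 (chr14:105891947-105896819) had levels of 4.21, 4.16 and 4.69 in the compound mutant and 3.95, 3.94, 4.03 and 3.81 in wild type. Every compound mutant library was above every wild-type library, and library 3 was the highest. The log2 difference was 0.42 (95% confidence interval 0.17 to 0.67), short of the fold threshold of 0.585 on the log2 scale. The adjusted p was 0.051 in limma, 0.161 with the replicate number as a block and 0.272 with the library set as a term. Without library 2 of the compound mutant the difference was 0.51, also short of the fold threshold, with an adjusted p of 0.016. Without library 3 it was 0.25. Spry4 had levels of 3.16, 3.80 and 4.14, a spread that ran from below the lowest to above the highest wild-type library (3.20 to 3.64). Its difference was 0.29 (−0.18 to 0.75) and became 0.56 without library 1. Spry1, at 4.31, 4.63 and 4.85, had the same order of libraries and a difference of 0.09 (−0.14 to 0.32).

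Dusp6 had levels of 5.23, 6.05 and 5.90 in the compound mutant. Library 1 lay far below all wild-type libraries, whereas library 2 lay just above the lowest of them. The log2 difference was −0.42 (95% confidence interval −0.77 to −0.06, adjusted p = 0.134). It was −0.17 without library 1. Without library 2 it was −0.576 with an adjusted p of 0.0311, short of the 1.5-fold threshold of 0.585 on the log2 scale. Etv4 followed the same order with levels of 4.48, 5.34 and 5.12, and its difference of −0.33 (−0.78 to 0.11) became −0.08 without library 1. Library 1 was also the library with the highest nerve and cartilage markers and the lowest epithelium markers, and their part in the result was not tested. Etv5, at 4.78, 4.94 and 4.57, was not low in library 1 and differed from wild type by 0.06 (−0.18 to 0.29).

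The ligands varied more between the compound mutant libraries than between the genotypes. Fgf3 had levels of 2.42, 3.04 and 3.90, and its library 1 and library 3 were the lowest and the highest of all 11 libraries. The difference from wild type was −0.17 (95% confidence interval −0.88 to 0.53), and it was 0.18 without library 1. Fgf10 had levels of 2.53, 2.48 and 3.08 with a difference of −0.16 (−0.49 to 0.17). Fgfr1, at 6.42, 6.46 and 7.01, and Fgfr2, at 5.31, 4.97 and 5.51, had differences of 0.03 (−0.31 to 0.37) and −0.02 (−0.32 to 0.28).

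**Figure D3:**
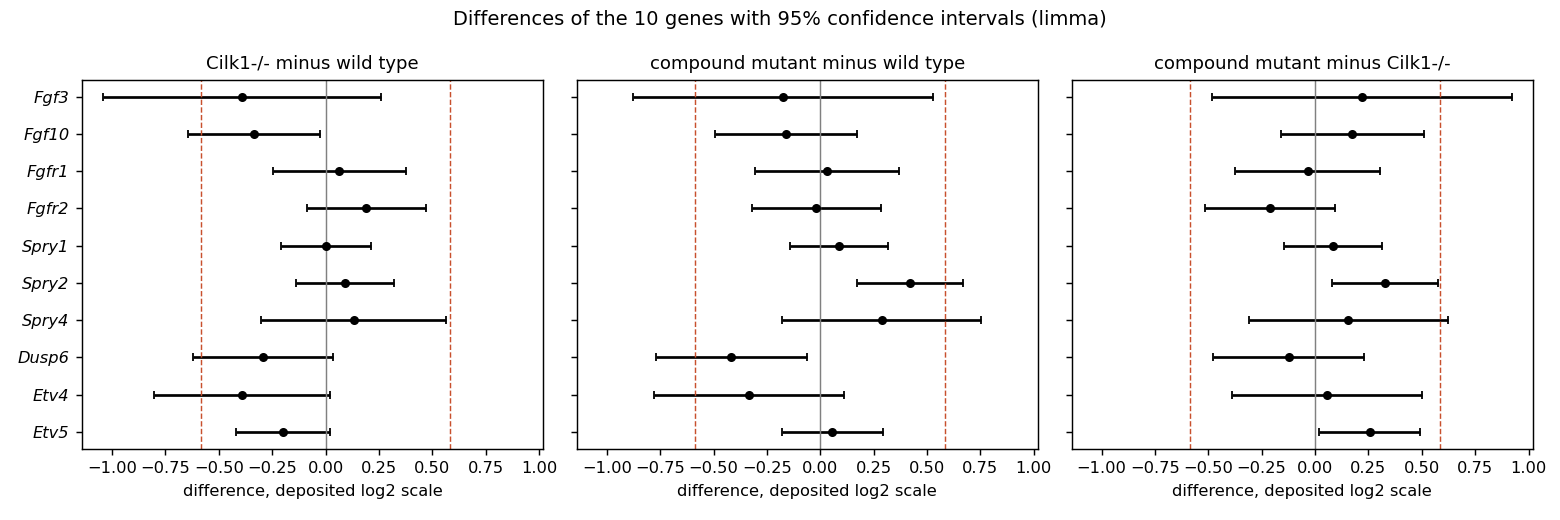
Differences of the 10 genes in the 3 comparisons (horizontal axis, deposited log2 scale) with 95% confidence intervals from limma, dashed lines marking a 1.5-fold change. No point passes a dashed line, and the largest values are those of Spry2 at 0.42 and Dusp6 at −0.42 in the compound mutant against wild type.

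Both mutants share the loss of Cilk1, and the third comparison set the compound mutant against Cilk1-/-. In this comparison 0 of 10 genes passed the threshold, against 0.543% of all genes. At an unadjusted p under 0.05 there were 2 of 10, Spry2 and Etv5, against 23.2% of all genes, and the groups did not overlap for 1 of 10, Spry2, against 17% of all genes. The median difference was 0.12 for the 10 genes and 0.00 for all genes. Spry2, at 3.97, 4.04, 3.96 and 4.13 in Cilk1-/-, was again lower than in every compound mutant library, with a difference of 0.33 (95% confidence interval 0.08 to 0.57, adjusted p = 0.12). Etv5 had Cilk1-/- levels of 4.59, 4.66, 4.31 and 4.46 and a difference of 0.26 (0.02 to 0.49, adjusted p = 0.191). Its compound mutant library 3 lay within the Cilk1-/- range. Dusp6 and Etv4 differed by −0.12 (−0.48 to 0.23) and 0.06 (−0.39 to 0.50), intervals that include 0. Fgf3 differed by 0.22 (−0.48 to 0.92) and Fgf10 by 0.18 (−0.16 to 0.51), and for Fgf3 the value was 0.57 without compound mutant library 1.

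The spread was wider in the compound mutant than in either other genotype for all 10 genes. Its lowest and highest libraries were 1.48 apart for Fgf3, against 0.90 in wild type and 0.63 in Cilk1-/-. Library 1 was the lowest of the 11 libraries for 5 genes (Fgf3, Spry1, Spry4, Dusp6 and Etv4). Library 3 was the highest for 6 (Fgf3, Fgf10, Fgfr1, Spry1, Spry2 and Spry4), and it was also the library with the fewest blood and vessel markers and the highest epithelium markers. How often all genes had a wider spread, or their lowest or highest value in compound mutant libraries 1 and 3, was not counted. The part of cell composition in these values was not tested.

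**Figure D4:**
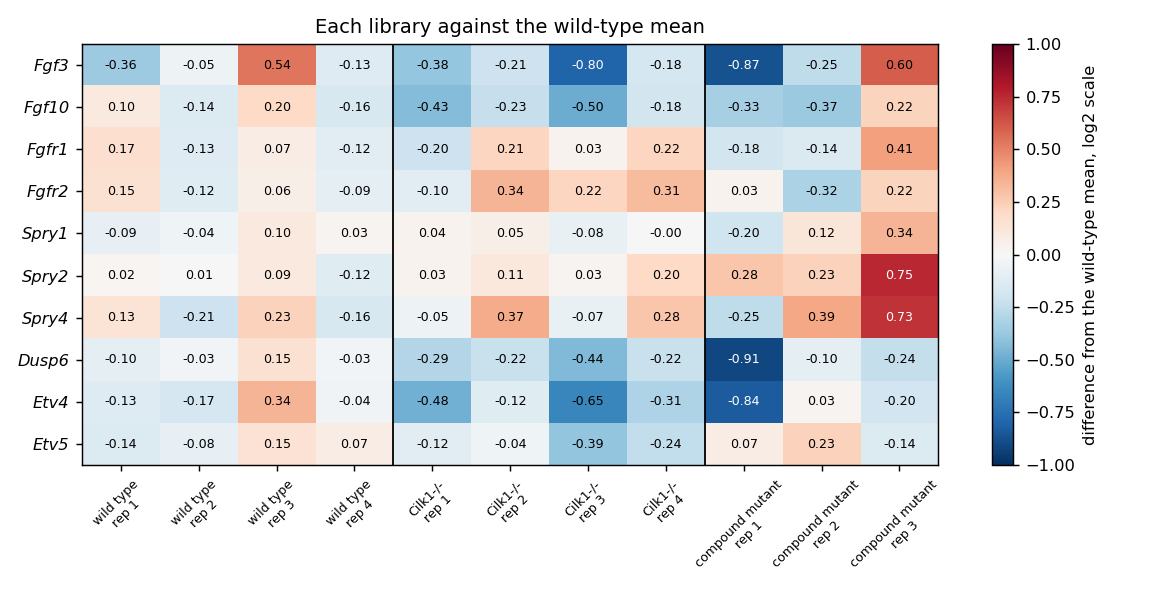
Each library's level minus the wild-type mean for the 10 genes (rows), on the deposited log2 scale, with red above and blue below the mean. Compound mutant library 1 is the lowest of 11 for 5 genes, and compound mutant library 3 is the highest for 6. The shares over all genes were not counted.

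Across the 11 libraries, Dusp6 and Etv4 had the most similar pattern of any pair of the 10 genes, with Pearson's r = 0.92. Spry1 and Spry4 reached 0.82, Fgf3 and Spry1 0.82, Fgf3 and Fgf10 0.81, and Fgfr1 and Fgfr2 0.80. These are descriptions over libraries that share genotype, pairing and composition, and carry no test. Among the 13028 genes with a mean of at least 1, those closest to Fgf10 were Foxd2os (r = 0.95), Thy1 (0.94) and Icosl (0.93). Those closest to Fgf3 were Elfn1 (0.96), 1700019D03Rik (0.94) and Tfrc (0.93). Dusp6 was closest to Pdha1 (0.97), Tpm4 (0.96) and Ethe1 (0.96), and Etv5 to Rrs1 (0.97), Hdgf (0.96) and Ube2s (0.96).

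A wider list of FGF pathway genes held 58 further genes, and Fgf5, Fgf6 and Fgf22 were not analysed here. It covered 17 other ligands, 10 receptors and co-factors, 12 feedback and target genes and 19 genes of the signal relay. At the same threshold, 1 of 58 passed in Cilk1-/- against wild type (Dusp9, lower), 2 in the compound mutant against wild type (Fgf7, lower, and Fgfr3, higher) and 2 in the compound mutant against Cilk1-/- (Fgf2 and Fgf7, both lower). These are 1.72%, 3.45% and 3.45% of the list, against 0.37%, 1.25% and 0.543% of all genes. None of these calls passed with the replicate number as a block, and the 4 that involve the compound mutant did not pass in a fit of only the 2 genotypes compared or with the set of libraries as a term. None of the 19 relay genes was called in any comparison. At an unadjusted p under 0.05 there were 10, 18 and 15 of 58 in the 3 comparisons, or 17.2%, 31% and 25.9% of the list, near the 20.7%, 26.7% and 23.2% of all genes.

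Fgf7, a mesenchymal ligand for the epithelial form of Fgfr2 as is Fgf10, had compound mutant levels of 1.24, 1.45 and 1.05. Its wild-type levels were 1.89, 1.87, 1.92 and 1.79 and its Cilk1-/- levels 1.84, 1.89, 1.84 and 1.94. All 3 compound mutant libraries were below every other library, whereas the other genotypes overlapped. Against wild type the difference was −0.62 (95% confidence interval −0.81 to −0.42, adjusted p = 0.00622, or 0.0797 with the block), and against Cilk1-/- it was −0.63 (adjusted p = 0.00933, or 0.138 with the block). Without compound mutant library 3, in which Fgf7 was lowest, the differences were −0.52 and −0.53, under 1.5-fold on the deposited scale. The mean linear values of Fgf7 were 2.65 in wild type, 2.68 in Cilk1-/- and 1.39 in the compound mutant. At such levels a log2(value + 1) scale understates fold changes. With the set of libraries as a term, the adjusted p was 0.105 against wild type.

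Fgf2, a ligand that lacks a classical secretion signal, stood in opposite directions in the mutants. Its levels were 1.68, 1.73, 1.69 and 1.88 in wild type, 2.17, 2.22, 2.26 and 2.12 in Cilk1-/-, and 1.39, 1.21 and 1.45 in the compound mutant. The 3 genotypes did not overlap. The compound mutant differed from Cilk1-/- by −0.84 (95% confidence interval −1.02 to −0.67, adjusted p = 0.00405, or 0.0925 with the block). Against wild type the differences were 0.45 in Cilk1-/- (adjusted p = 0.0166) and −0.40 in the compound mutant (adjusted p = 0.0195). Each was less than 1.5-fold on the deposited scale, and the adjusted p with the block was 0.149 and 0.154. The mean linear values of Fgf2 were 2.35 in wild type, 3.57 in Cilk1-/- and 1.55 in the compound mutant. In this range a log2(value + 1) scale understates fold changes.

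Fgfr3, a receptor abundant in growth cartilage, had levels of 3.96, 3.69, 3.85 and 3.68 in wild type, 4.05, 4.51, 4.33 and 4.48 in Cilk1-/-, and 5.05, 4.07 and 4.59 in the compound mutant. Both mutant groups lay above all wild-type libraries. The difference was 0.77 (95% confidence interval 0.34 to 1.20, adjusted p = 0.0434, or 0.163 with the block) in the compound mutant and 0.55 (adjusted p = 0.124) in Cilk1-/-. The compound mutant call was lost without its library 1 (0.53, adjusted p = 0.0865), the library with the highest cartilage and bone markers, whose part was not tested. It was kept in 2 of the 11 fits that left out 1 library.

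Dusp9, a phosphatase of the same family as Dusp6, had levels of 2.46, 2.64, 2.69 and 2.63 in wild type and 2.15, 2.002, 1.87 and 1.93 in Cilk1-/-. The groups did not overlap, and the difference was −0.62 (95% confidence interval −0.85 to −0.39, adjusted p = 0.0184, or 0.134 with the block). The call was kept in 5 of the 11 fits that left out 1 library, with adjusted p between 0.00572 and 0.0748. It was lost without any 1 of Cilk1-/- libraries 2, 3 and 4 and of wild-type libraries 2, 3 and 4. The compound mutant levels of 1.94, 2.41 and 2.06 were also below wild type, by 0.47 on the log2 scale, less than 1.5-fold (adjusted p = 0.0377, or 0.155 with the block).

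**Figure D5:**
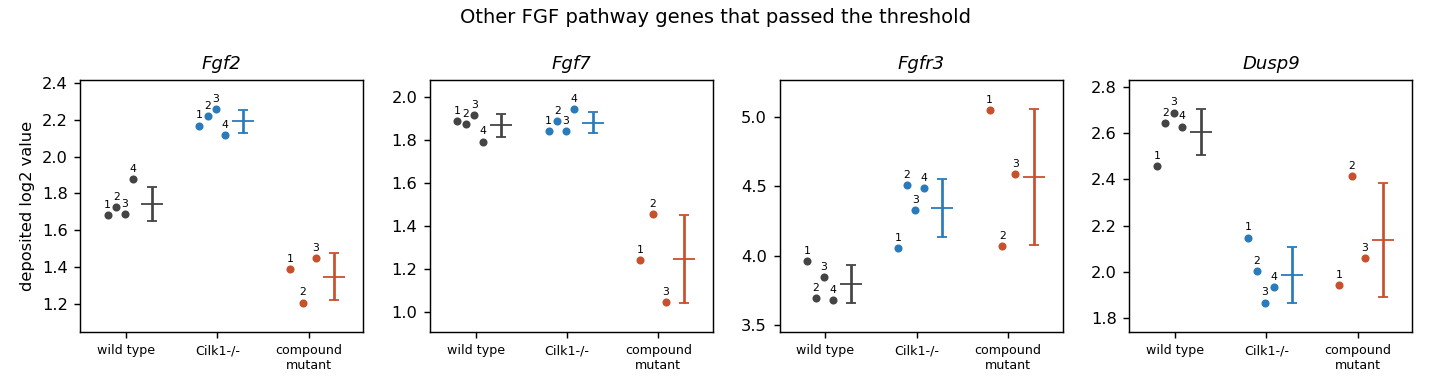
Levels of the 4 further FGF pathway genes that passed the threshold in at least 1 comparison (vertical axes, deposited log2 values, each panel with its own range), with 1 numbered point per library and the mean ± SD beside the points. The 3 genotypes are separate for Fgf2, and the compound mutant alone is low for Fgf7.

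The enamel knot ligands were low and variable. Fgf4 ranged from 1.25 to 1.69 in wild type, 1.503 to 2.05 in Cilk1-/- and 1.01 to 2.03 in the compound mutant. Fgf9 ranged from 1.34 to 1.98, 1.68 to 2.21 and 1.77 to 3.06, the highest being compound mutant library 3. Fgf20 ranged from 1.21 to 1.82, 1.31 to 1.91 and 1.07 to 1.91. Their differences from wild type were 0.34, 0.14 and 0.21 in Cilk1-/- and 0.13, 0.50 and −0.02 in the compound mutant, with adjusted p between 0.288 and 0.967 in limma. Fgfr4 was the least abundant receptor, at 0.53 to 1.05 outside the compound mutant, and reached 1.95 in compound mutant library 1.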

How the data were processed

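Maxillary molar tooth germs were profiled by poly-A RNA-sequencing in 4 wild-type, 4 Cilk1-/- and 3 compound mutant libraries, and genotypes were taken from the sample titles. The authors mapped reads to mm10 (HISAT2 2.0.5 and featureCounts 1.5.0-p3, per the submitters' processing notes) and calculated FPKM values. The deposited values are on a log2 scale, and the step to log2 is not given in the sources used here. They were read as log2(value + 1) of FPKM, although 257 genes have a value below 0 in at least 1 library, which that scale cannot hold. The linear values, the marker sums (negative values set to 0) and the pseudocount alternative rest on this reading. The depth of each library is therefore unknown, a count model was not used, and the precision of a value is given by how far libraries of a genotype differ.

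All 16755 genes were fitted together with limma 3.58.1 in R 4.3.3 (lmFit, then eBayes with trend and robust) over the 3 genotypes without covariates. P-values were two-sided and adjusted by Benjamini-Hochberg over all genes. A call needed an adjusted p under 0.05 together with a 1.5-fold change or more, taken on the deposited log2 scale. The labels describe the embryos as littermates, and same-numbered wild-type and Cilk1-/- libraries deviated together with opposite sign in 4 of 4 pairs. Whether the values were adjusted after the log2 step, for example for the replicate number, is not stated in the sources used here and was not tested. The values below 0 leave that doubt in place. The numbers were taken as pairing these libraries, and values with the replicate number as a block stand beside the calls they change. The correlations of compound mutant libraries with same-numbered ones were −0.12 to 0.26, so their place in the block is less certain. The library names in the labels form 2 sets, with all compound mutant libraries, Cilk1-/- library 4 and wild-type library 4 in the second.

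The 10 genes and all lists were chosen with earlier results of these data known. Named genes were these 10, any gene of the FGF pathway list that was called, Fgf4, Fgf9, Fgf20, Fgfr3 and Fgfr4, and for 4 of the genes the 3 with the most similar pattern. Cell type markers were summed on the linear scale. Alternatives were the block, the set term, a fit of only 2 genotypes, a plain eBayes, a filter that kept genes whose mean was 1 or more, a pseudocount of 0.1, quantile normalization, median centring, other call rules and leaving out each library, and a block with the compound mutant in pair 4 was added after seeing the data. Positions come from GENCODE vM21 (GRCm38), and promoters from RefSeq. Plots were drawn with matplotlib 3.10.9 in Python 3.11.15.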

Additional observations from a re-analysis of the deposited data

Results flagged for a closer look

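Fgf2 and Fgf7 were singled out because the compound mutant against Cilk1-/- comparison, a direct test of whether the mutants differ, called both without covariates. The compound mutant minus Cilk1-/- value was −0.84 for Fgf2 and −0.63 for Fgf7 on the deposited log2 scale (limma adjusted p = 0.00405 and 0.00933), and neither passed with the replicate number as a block (0.0925 and 0.138), with the library set as a term (0.0709 and 0.165) or in a fit of only these 2 genotypes (0.0754 and 0.0983). A difference between the mutants therefore depends on the fit for both genes. For the 10 FGF genes, no library stood apart from its own genotype by Dixon's test in wild type or Cilk1-/-, and the 3 compound mutant libraries were too few for that test.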

How the results depend on the processing

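Depth is unknown and the groups hold 3 or 4 libraries, so the intervals printed with each gene set what could be detected. Those of Cilk1-/- against wild type take same-numbered libraries as independent, which may not hold, and may be too narrow. None of the 10 genes was called under any alternative, including the replicate block, whose effect on the count of all called genes was 62 to 4, 209 to 26 and 91 to 2 in the 3 comparisons (Cilk1-/- against wild type, compound mutant against wild type, compound mutant against Cilk1-/-). Of the log2 differences of the 10 genes, 268 kept their direction and side of the threshold under settings other than leaving out a library, and 2 did not. These were Spry1 in Cilk1-/- under median centring (−0.015) and Fgfr2 in the compound mutant under quantile normalization (0.0091). Leaving out each library in turn turned the direction of 25 values and kept that of 305. The ranges were −0.026 to 0.036 for Spry1 in Cilk1-/- against wild type. In the compound mutant against wild type they were −0.56 to 0.18 for Fgf3, −0.16 to 0.14 for Fgfr1, −0.14 to 0.13 for Fgfr2, −0.039 to 0.23 for Spry1 and −0.032 to 0.15 for Etv5. In the compound mutant against Cilk1-/- they were −0.17 to 0.57 for Fgf3, −0.016 to 0.28 for Fgf10, −0.23 to 0.070 for Fgfr1, −0.042 to 0.23 for Spry1, −0.063 to 0.43 for Spry4, −0.28 to 0.12 for Dusp6 and −0.12 to 0.31 for Etv4.

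The count of called genes in the FGF pathway list, 1, 2 and 2 in the same order of comparisons, was 0, 0 and 0 with the replicate block, and again 0, 0 and 0 where the block set the compound mutant in pair 4. It was 0 and 0 in both compound mutant comparisons in the fit of only 2 genotypes and with the set of libraries as a term. With no fold asked it was 4, 8 and 3 in the same order, and the share of all genes at that rule was not counted. Leaving out each library gave 0 to 1, 1 to 3 and 2 to 2 calls, with the lowest counts without Cilk1-/- library 2, among others, and without compound mutant library 1. The cause of these losses was not tested.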
